A study of Rattus norvegicus with 5 samples.

Results

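The genes of amyloid precursor processing and clearance were examined in parietal cortex of rats with kaolin-induced hydrocephalus. Genes were selected by name: a probe entered when its name in the array file, with the suffixes predicted or mapped removed, or its current rat symbol was App, Aplp1, Aplp2, Bace1, Psen2, Ncstn, Mme, Ide or Lrp1. This found 10 probes for 8 of the 9 genes, out of 24824 genes tested. Of the 24824, 12043 had an official symbol, and the rest were counted under their name in the array file. Shares of all tested genes below are over both kinds. Both Aplp2 and Lrp1 had 2 probes, the other 6 genes had 1, and no probe carried the name Aplp1. All 10 probes were well above background in both channels of all 5 arrays.

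Injected kaolin, a mineral powder, obstructs the drainage of cerebrospinal fluid and the ventricles enlarge. Rats received kaolin or saline on postnatal day 1, and both groups stayed with the dam until postnatal day 22, which was day 21 after kaolin. Total RNA of 5 kaolin samples (Cy3) and 5 saline samples (Cy5) was compared on 5 two-colour arrays, 1 pair to an array. Dyes were never exchanged, so dye and treatment cannot be told apart, and the labels do not say whether a sample was 1 animal or several, so the p-values measure the spread between arrays, which may be technical. The strain and the sex of the rats are not given in the sources used here.

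App encodes the amyloid precursor protein, a membrane protein that neurons make in large amounts and carry along their axons. It is first cut either by an alpha-secretase, which destroys the amyloid beta sequence, or by the beta-secretase Bace1, and the remaining stump is cut by gamma-secretase, a complex of a presenilin, nicastrin, an Aph1 protein and the presenilin enhancer Psenen. The amyloid beta peptide is broken down by peptidases such as neprilysin (Mme) and the insulin-degrading enzyme (Ide), or carried out of the tissue through receptors such as Lrp1 and with the flow of fluid.

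None of the 8 genes passed the test, and their means lay between 0.846-fold and 1.19-fold of saline. The 2 largest mean values were those of Ncstn, at 0.25 ± 0.26 on the log2 scale (SD, n = 5; 1.19-fold), and Ide, at -0.24 ± 0.17 (0.846-fold). The precursor itself, App, was at 0.062 ± 0.19 (1.04-fold) by the probe that carries its name. Taking the brightest probe of each gene, the 95% intervals of the mean reached from 0.740-fold, the lower bound for Ide, to 1.42-fold, the upper bound for Ncstn. In limma with Benjamini-Hochberg adjustment over all 29113 tested probes, 0 probes on the whole array passed an adjusted p of 0.05 (0% of genes; 5279 probes had an unadjusted p under 0.05), and the smallest adjusted p, 0.243, was also that of Ide. Without an adjustment, 2 of the 8 genes, Ide and Ncstn, had a p under 0.05, against 18.3% of all tested genes. The median absolute mean was 0.089 over the 8 genes and 0.12 over all tested genes, and the median SD between arrays was 0.21 in the 8 genes and 0.22 in all.

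**Figure D1:**
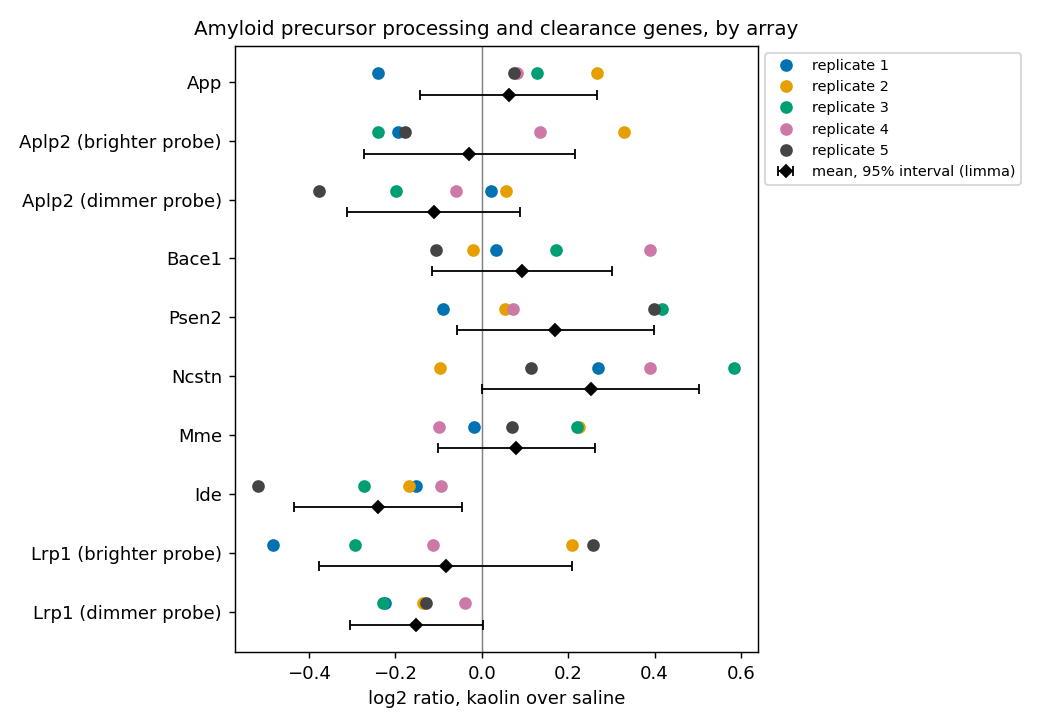
Log2 ratio of kaolin over saline (x axis) for the 10 probes (y axis); coloured points are the 5 arrays, and the black diamond with its bar is the mean with its 95% interval from limma. The 5 Ide points all lie below 0, as do those of the dimmer Lrp1 probe, while every other probe has arrays on both sides of 0.

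The arrays themselves were not alike. Counts of probes well above background per array ranged from 27956 to 29385 for kaolin and from 27372 to 28930 for saline, and the number of arrays limits the precision. Over all probes, replicates 1 and 2 correlated at r = -0.33, whereas the other pairs ranged from -0.15 to 0.80; the labels give both arrays the same dyes, so their direction was kept. Replicates 1 to 4 shared a slide and replicate 5 lay on another. Values without each array are therefore given below where they alter a direction or a count. Without replicate 2, 1536 probes passed, and 0 of the 8 genes were among them (smallest adjusted p of the 8 genes = 0.0783, for Ncstn).

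The labelled tissue was checked against markers. All 6 neuronal markers (Rbfox3, Snap25, Syt1, Map2, Nefl and Slc17a7) were well above background in both channels of every array. Their median log2 ratio was -0.56, 0.32, -0.41, -0.20 and -0.29 on replicates 1 to 5, and 5 of the 6 had means below 0. Their summed signal ran from 56329 to 95227 in kaolin and from 69302 to 91184 in saline samples, and was lower in kaolin on 4 of 5 arrays. For the 6 microglia and macrophage markers (Aif1, Itgam, Cx3cr1, Csf1r, Tyrobp and Cd68) the median was -0.13, 0.10, 1.86, 1.33 and 1.43, and 6 of 6 means were above 0. Their summed signal ran from 7429 to 32274 in kaolin and from 6155 to 7320 in saline samples. The 6 oligodendrocyte markers had a lower summed signal in kaolin on 5 of 5 arrays (from 133718 to 239431, against 238159 to 271523 in saline), as had the choroid plexus markers, of which 4 of 5 were measured (from 766 to 3158, against 1136 to 53272). The summed signal was higher in kaolin on 4 of 5 arrays for the 6 astrocyte and for the 4 meningeal markers, and on 3 of 5 for the 5 vascular markers. The median log2 ratio of the meningeal markers was above 0 on replicates 3 and 5 only (-0.31, -0.20, 0.81, -0.17 and 0.70), and that of the astrocyte markers was -0.21, 0.28, 0.27, 0.057 and 0.46. None of these lists had a gene past the adjusted threshold. In bulk tissue, fewer cells of a type and less RNA per cell cannot be told apart, and the part of the cell mixture in the values below was not tested.

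The precursor family comes first. App, measured by a probe at chr11:24463718-24467329 on build rn4, had log2 ratios of -0.24, 0.27, 0.13, 0.081 and 0.075 on replicates 1 to 5. It was higher in kaolin on 4 of 5 arrays and lower on replicate 1. In signal, the kaolin samples stood at 13.34, 13.60, 13.56, 13.59 and 13.70 (normalized log2 signal) and the saline samples at 13.58, 13.34, 13.43, 13.51 and 13.62. The groups overlapped, and the spread within each group (SD 0.13 and 0.11) exceeded the difference between their means. The fold was 1.04 with an interval from 0.906 to 1.20 (adjusted p = 0.704), and the mean was 0.14 without replicate 1 and 0.011 without replicate 2. It was -0.22 when arrays were centred on their median in place of loess, which fits each ratio to the brightness of the spot. That setting, called median centring below, put the median over all tested genes at -0.10. The move from the main setting was uneven, from 0.062 to -0.22 for the bright App probe and from 0.093 to 0.051 for the dim Bace1 probe. Values under it therefore have no single reference, neither 0 nor -0.10.

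A second array sequence bears on App without carrying its name. This probe (A_44_P1054883, chr11:24457291-24457350) is described in the file as a partial App gene and was looked up after the values of the named probe were seen; it is not counted among the 10. Its log2 ratios were -0.56, 0.40, -0.35, -0.091 and -0.13, with a mean of -0.15 ± 0.36 (SD, n = 5; adjusted p = 0.555), which was -0.48 with median centring and between -0.28 and -0.044 when single arrays were left out. It was brighter than the named App probe, with mean normalized log2 signals of 14.52 in kaolin and 14.66 in saline, against 13.56 and 13.49. Were it counted as App, it would stand for the gene under the rule of the brightest probe. It was lower in kaolin on 4 of 5 arrays, against 1 of 5 for the named App probe. Its 5 values lay close to the neuronal marker median, with a root mean square difference of 0.096 and the same sign on 5 of 5 arrays, while the named App probe differed from that median by 0.35 and shared its sign on 2 arrays. With the microglial marker median the named probe shared its sign on 5 of 5 arrays and the other on 2. How many of all tested genes lie as close to either marker median is not given here. The part of cell types in the difference between the probes was not tested. Both App probes lie on the minus strand of chromosome 11.

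Aplp2 is a relative of App that lacks the amyloid beta sequence and is cut by the same enzymes. Its brighter probe (chr8_random:288467-288526) had log2 ratios of -0.19, 0.33, -0.24, 0.13 and -0.18, a mean of -0.029 ± 0.25 (SD, n = 5; adjusted p = 0.889). Kaolin was higher on replicates 2 and 4 and lower on the other 3. The sign of this mean rested on single arrays: it was 0.012 without replicate 1, 0.023 without replicate 3 and 0.0077 without replicate 5. The saline samples lay close together, from 13.28 to 13.39, and the kaolin samples spread on both sides of them, from 13.11 to 13.60. The dimmer probe, 8723 bases away, gave 0.020, 0.055, -0.20, -0.060 and -0.38, a mean of -0.11 ± 0.18 (adjusted p = 0.478). With median centring the brighter probe was at -0.30 and the dimmer at -0.27. The 2 Aplp2 probes had the same sign on 3 of 5 arrays.

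For Aplp1, a relative found mainly in the nervous system, no probe met the rule. One probe (A_42_P827480, chr1:85390728-85390787) is described in the file as amyloid beta A4-like protein 1 but is named by a transcript identifier, and it was looked up after the other values were seen. Its log2 ratios were -0.043, 0.29, 0.12, 0.37 and -0.054, with a mean of 0.14 ± 0.19 (SD, n = 5; adjusted p = 0.409), which median centring took to -0.10.

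**Figure D2:**
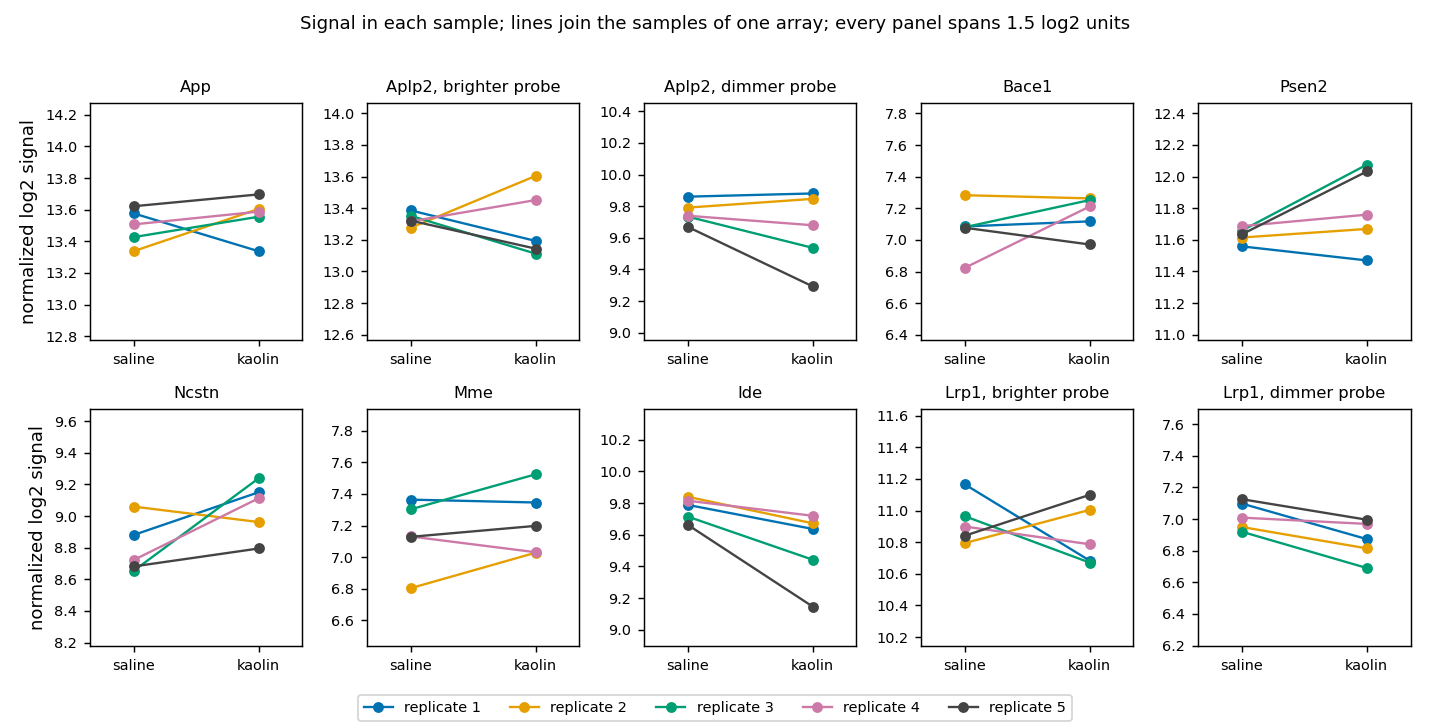
Normalized log2 signal (y axis) of each saline and kaolin sample for the 10 probes; a line joins the 2 samples that shared an array, and each panel spans the same 1.5 log2 units around its own centre. All 5 lines slope down for Ide and for the dimmer Lrp1 probe, and saline and kaolin samples overlap in all 10 panels.

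Among the cutting enzymes, Bace1, the beta-secretase of neurons, had log2 ratios of 0.032, -0.020, 0.17, 0.39 and -0.11 at chr8:48836292-48836351. The largest value came from replicate 4, where the saline sample was the lowest of its group (6.82, against 7.08 to 7.28 in the others). The mean was 0.093 ± 0.19 (SD, n = 5; adjusted p = 0.571), with an interval from 0.923-fold to 1.23-fold, and it was 0.019 without replicate 4.

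Psen2 encodes a presenilin, the catalytic subunit of gamma-secretase. Its log2 ratios (chr13:95934249-95934308) were -0.089, 0.054, 0.42, 0.073 and 0.40, and those of replicates 3 and 5 stood apart from the rest. Saline samples lay between 11.56 and 11.69, whereas the kaolin samples of replicates 3 and 5 were at 12.07 and 12.03 and the other 3 between 11.47 and 11.76. The mean of 0.17 ± 0.23 (SD, n = 5; adjusted p = 0.361) was -0.043 with median centring, beside -0.10 for tested genes of any brightness. It was 0.11 without replicate 3 or 5.

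Ncstn encodes nicastrin, the large subunit that holds the substrate. Its log2 ratios (chr13:88062036-88062376) were 0.27, -0.098, 0.58, 0.39 and 0.11. Kaolin was higher on 4 of 5 arrays, and replicate 2 was the exception. Kaolin samples ran from 8.80 to 9.24 and saline samples from 8.65 to 9.06, so the groups overlapped. The mean was 0.25 ± 0.26 (SD, n = 5) with an interval from 1.00-fold to 1.42-fold and an adjusted p of 0.275. The mean was 0.34 without replicate 2 (adjusted p = 0.0783) and 0.17 without replicate 3. It was above 0 under each background correction and normalization tried, from 0.11 with median centring to 0.29 with an offset of 0.

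Of the other gamma-secretase subunits, Psenen, which activates the complex, had 0.22, 0.088, 0.27, 0.26 and 0.23, positive on 5 of 5 arrays, with a mean of 0.21 ± 0.073 (SD, n = 5; adjusted p = 0.243); median centring took it to -0.033. Aph1b and Aph1a, scaffold subunits looked up after values were seen, were at 0.28 ± 0.29 and 0.19 ± 0.30. None of these 3 genes passed the adjusted threshold. With median centring, Psen2, Psenen and Ncstn all lay above the median of all tested genes in that setting, a median that takes no account of brightness. No value of Aph1a or Aph1b is given for that setting, and a shared rise of the complex was not tested.

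Of the genes that remove amyloid beta, Ide was lower in kaolin on every array. This cytosolic metalloprotease degrades insulin and amyloid beta. Its log2 ratios (chr1:241549836-241550436) were -0.15, -0.17, -0.27, -0.095 and -0.52, below 0 on 5 of 5 arrays, as were 6.93% of all tested genes. Kaolin samples stood at 9.64, 9.67, 9.44, 9.72 and 9.15 and saline samples at 9.79, 9.84, 9.71, 9.82 and 9.66. The lowest saline sample lay below 2 of the kaolin samples, so the groups overlapped although each kaolin sample was below the saline sample on its own array. The mean of -0.24 ± 0.17 (SD, n = 5) corresponds to 0.846-fold with an interval from 0.740-fold to 0.968-fold (adjusted p = 0.243). It ran from -0.28 to -0.17 when single arrays were left out, the weakest value being without replicate 5, and from -0.40 to -0.21 over the other corrections and normalizations.

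Mme encodes neprilysin, a peptidase on the cell surface. Its log2 ratios (chr2:153114283-153114342) were -0.018, 0.22, 0.22, -0.10 and 0.069, with a mean of 0.080 ± 0.14 (SD, n = 5; adjusted p = 0.578), which was 0.043 without replicate 2 and 0.019 with median centring. Its samples differed more between arrays than within them: saline ran from 6.80 to 7.36 and kaolin from 7.03 to 7.52.

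Lrp1 is a large endocytic receptor of neurons, glia and vessels that takes up amyloid beta, and its 2 probes lie 43872 bases apart on chromosome 7. The brighter one (chr7:67521714-67521773) gave -0.48, 0.21, -0.29, -0.11 and 0.26, a mean of -0.084 ± 0.32 (SD, n = 5; adjusted p = 0.722). Of the 8 genes it had the largest spread between arrays, wider than that of 73.2% of tested genes, and its mean was 0.016 without replicate 1 and -0.28 with median centring. The dimmer probe (chr7:67565586-67565793) gave -0.22, -0.14, -0.23, -0.040 and -0.13, a mean of -0.15 ± 0.079 (adjusted p = 0.279), which was -0.35 with the authors' values. It was below 0 on 5 of 5 arrays with a spread smaller than that of all but 5.30% of tested genes. The probes had the same sign on 3 of 5 arrays and differed on replicates 2 and 5, where the brighter probe was higher in kaolin.

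The 8 genes did not share 1 profile over the arrays. The closest pair was App and Mme, with a root mean square difference of 0.14 between their 5 log2 ratios, and the farthest was Lrp1 and Ncstn, at 0.58. In the order of their means, the genes ran Ide (-0.24), Lrp1 (-0.084), Aplp2 (-0.029), App (0.062), Mme (0.080), Bace1 (0.093), Psen2 (0.17) and Ncstn (0.25), and the intervals of all neighbours in this order overlapped. Median values over the 8 genes were -0.12, 0.13, 0.15, 0.077 and 0.072 on replicates 1 to 5. Outside the pathway, the tested genes with the profile most like that of App were Vac14, Ccn4 and Gas2l1, with root mean square differences of 0.049, 0.054 and 0.057 over 5 arrays. A total of 101 of 12042 genes lay within 0.1 of App on this measure.

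**Figure D3:**
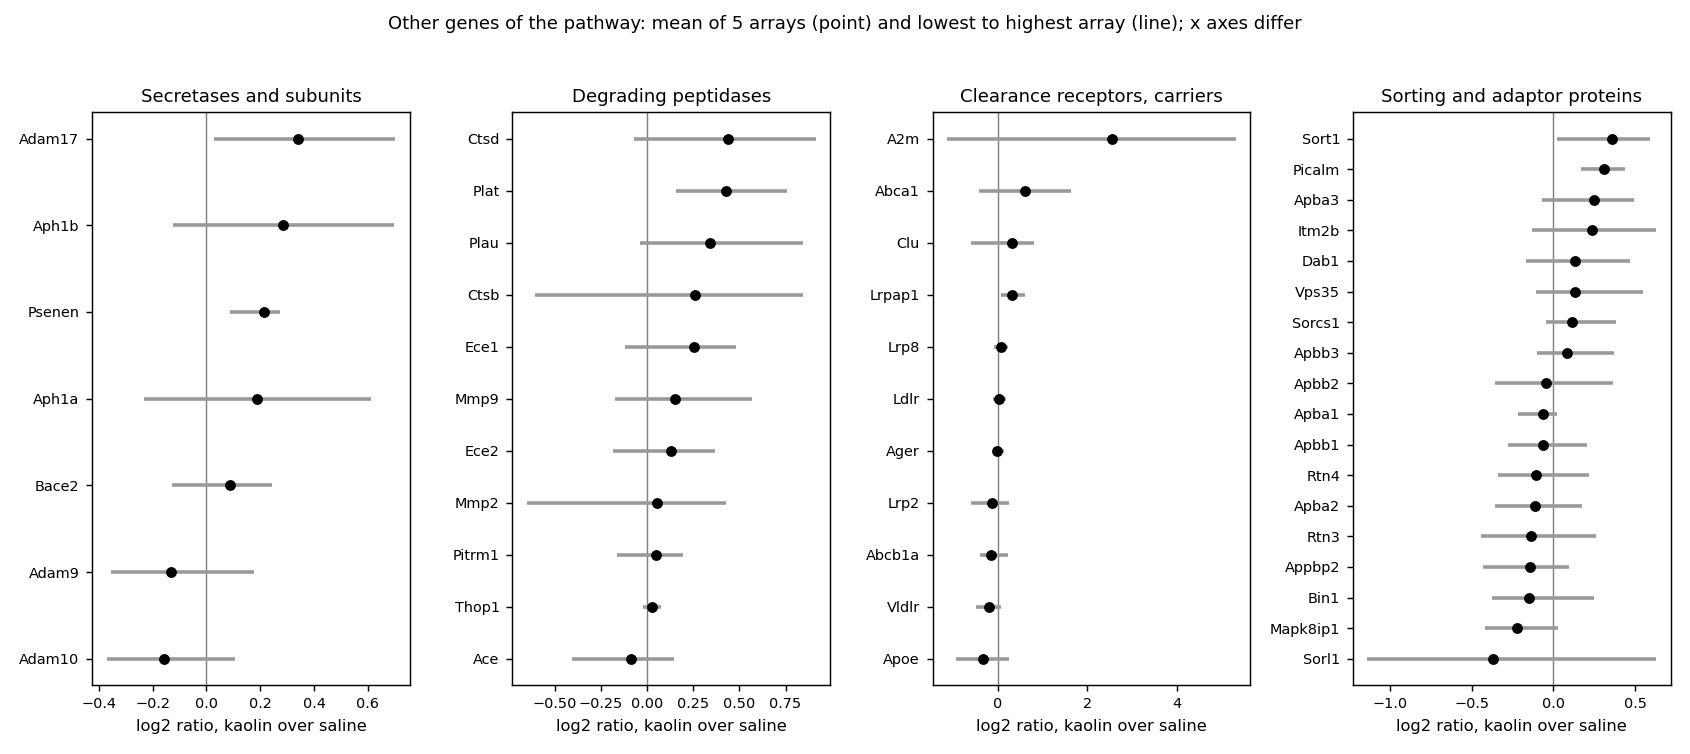
Mean log2 ratio of kaolin over saline (points) and the range from the lowest to the highest array (lines) for other genes of the pathway. Each gene is shown by its brightest probe, in 4 panels by role, each with its own x axis. A2m has the widest range, from -1.14 to 5.32, and the lines of Psenen, Adam17, Plat, Lrpap1, Picalm and Sort1 lie wholly above 0.

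The wider pathway was described with 48 other genes, all measured. In limma, 0 of the 48 passed the adjusted threshold in either direction, and 12 had an unadjusted p under 0.05 (25%, against 18.3% of all tested genes), 11 of them with higher and 1 with lower values in kaolin. Means were above 0 for 29 of the 48 genes, with a median of 0.076, beside 48.1% and -0.0081 for all tested genes. With median centring in place of loess, 17 of the 48 means were above 0 with a median of -0.092, beside 30.9% and -0.10 for all tested genes. On all 5 arrays, 6 of the 48 were higher in kaolin (12.5%, against 5.78% of all tested genes) and 0 were lower (against 6.93%). These counts take the brightest probe of each gene, and dimmer probes can differ. Dimmer probes of Apbb2 (-0.58 and -0.11) and Ece1 (-0.42) were lower on 5 of 5 arrays, and one of Thop1 (0.13) was higher on 5 of 5. The brightest probes of these genes were at -0.047 for Apbb2, 0.25 for Ece1 and 0.028 for Thop1. The median of the 48 genes was -0.15, 0.11, 0.095, 0.16 and 0.052 on replicates 1 to 5, below 0 on replicate 1 and above 0 on the others, as were the microglial and the astrocyte marker medians; the part of either cell type in these values was not tested.

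The 8 secretase genes had 5 means above 0, and 2 with median centring. Adam17, an alpha-secretase that also sheds tumour necrosis factor, was at 0.34 ± 0.28 (SD, n = 5) and higher on 5 of 5 arrays. Adam10, the main alpha-secretase of neurons, was at -0.16 ± 0.20 and lower on 4 of 5. Adam9 was at -0.13 ± 0.23, and Bace2, a relative of Bace1, at 0.088 ± 0.14. With median centring Adam17 was at 0.23 and Adam9 at -0.27, and Adam10 was at -0.27 with the authors' values.

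Of 11 peptidase genes, 10 had means above 0, and 6 with median centring. Plat, the tissue plasminogen activator, had log2 ratios of 0.16, 0.16, 0.76, 0.38 and 0.68, a mean of 0.43 ± 0.28 (SD, n = 5; adjusted p = 0.243), which was 0.27 with median centring. Ctsd, a lysosomal protease, had -0.071, 0.19, 0.91, 0.47 and 0.70, a mean of 0.44 ± 0.39 (adjusted p = 0.243), which was 0.081 with median centring. In both genes replicates 3, 4 and 5 were above replicates 1 and 2. Ace, the angiotensin-converting enzyme, was the gene whose brightest probe had a mean below 0 (-0.089 ± 0.26). Dimmer probes of Ece1 (-0.42 ± 0.33) and Mmp2 (-0.048 ± 0.081) were below 0 too. Another dimmer Ece1 probe (0.22 ± 0.28) and the dimmer Thop1 probe (0.13 ± 0.096) were above 0.

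The 11 receptor, carrier and transporter genes had 6 means above 0 and a median of 0.030, which was -0.015 without background subtraction, -0.0011 with the authors' values and -0.041 with median centring. A2m, alpha-2-macroglobulin, a protease inhibitor that binds amyloid beta and is an acute-phase protein of the rat, had log2 ratios of -0.24, -1.14, 4.42, 4.42 and 5.32. It was much higher in kaolin on replicates 3, 4 and 5 and lower on the others, and its mean of 2.56 (n = 5; 95% interval from 0.15 to 4.97; adjusted p = 0.262) lay far from all 5 arrays. Lrpap1, the chaperone of Lrp1, was at 0.30 ± 0.21 and higher on 5 of 5 arrays (adjusted p = 0.243). Apoe, the main lipid carrier of brain and an amyloid beta binder, was at -0.33 ± 0.45, and Vldlr, a lipoprotein receptor, at -0.19 ± 0.25. With median centring Lrpap1 was at 0.093, Apoe at -0.77 and Vldlr at -0.34, and Apoe was at -0.17 with the authors' values.

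The 18 sorting, adaptor and regulatory genes had 8 means above 0, 4 with median centring and 9 with the authors' values. Sort1, sortilin, was at 0.36 ± 0.23 (SD, n = 5; adjusted p = 0.243) and passed without replicate 2 (0.44, adjusted p = 0.0463), the 1 gene of the 48 to do so, in a setting where 1536 of 29113 probes passed. Picalm, a clathrin assembly protein, had 0.25, 0.17, 0.44, 0.27 and 0.41, a mean of 0.31 ± 0.11 with all arrays above 0 (adjusted p = 0.243). Mapk8ip1, a scaffold that links App to kinesin and kinases, was at -0.22 ± 0.17 and lower on 4 of 5 arrays (adjusted p = 0.251). Appbp2, an App-binding protein, was at -0.14 ± 0.19. With median centring Sort1 was at 0.20, Picalm at 0.19, Mapk8ip1 at -0.61 and Appbp2 at -0.33, and Mapk8ip1 was at -0.13 with the authors' values.

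**Figure D4:**
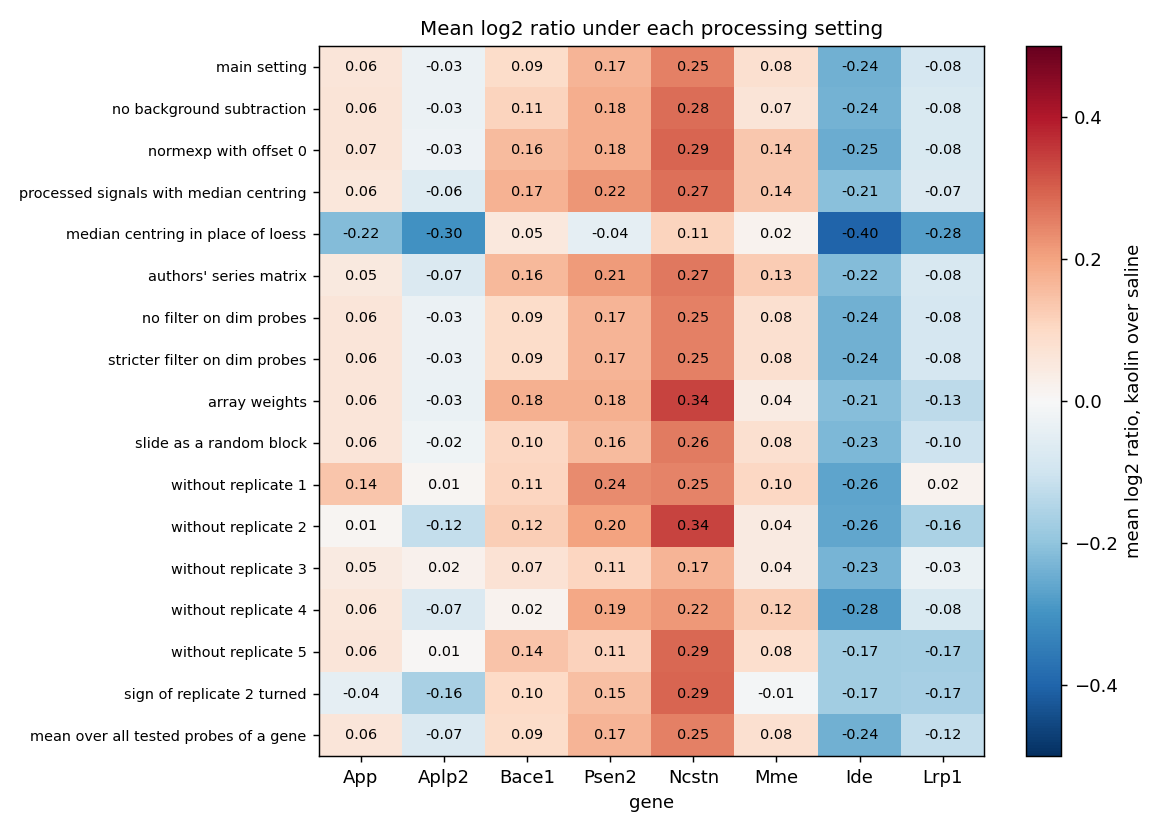
Mean log2 ratio of kaolin over saline (numbers and colour) for the brightest probe of each gene (columns) under the main setting and 16 other settings (rows). Bace1, Ncstn and Ide keep their sign in all rows, and median centring in place of loess lowers all 8 genes, by the most for App (from 0.062 to -0.22).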

How the data were processed

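The genes and the lists were chosen with earlier results of these data known. Agilent Feature Extraction 10.1.1.1 read the arrays, whose design uses genome build rn4, per the file headers. In these deposited files, mean spot signals and local backgrounds are raw intensity values, processed signals are intensity values after background subtraction and dye normalization, and LogRatio is a log10 value, Cy5 over Cy3. The deposited series matrix holds log2 ratios; they correlated at -1.00 to -0.978 with LogRatio of the same array, so they are Cy3 over Cy5. Their medians were 0.020, -0.051, -0.016, 0.093 and -0.10; the authors' normalization and centring are not given in the sources used here.

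Spots marked as outliers (86 to 147 per array) were left out. Signals were corrected with normexp (offset 50), normalized by loess within arrays with control spots at weight 0, and averaged by probe. Single-channel signals were set on 1 scale by quantile normalization of the average brightness. Probes well above background in either channel on at least 3 of 5 arrays were tested (29113 of 41012). No spot was saturated. Log2 ratios (kaolin over saline) were fitted against 0 with lmFit and eBayes in limma 3.58.1 (R 4.3.3), two-sided, with the array as the pair. The fit was tested on simulated data, but no outcome is given here and no result above rests on it. A gene is its brightest tested probe. Symbols came from RefSeq for 10768 probes by accession, 168 by another accession, 5055 by symbol and 3388 by an older symbol; 21633 kept the file's name. Named were the 8 genes, in the wider list the 2 genes with the smallest p in each direction per role, and the 3 genes nearest to App; Aph1a, Aph1b, Bace2 and 2 probes outside the rule were added after values were seen. Alternatives changed background correction, normalization, the filter, array weights, the slide, the arrays used and the probe that stands for a gene. Probe positions are those of the files; exon and UTR positions are not given. One gene of the wider list, counted in its totals, is not reported here.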

Additional observations from a re-analysis of the deposited data

Results flagged for a closer look

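Of 47 groups of 5 values checked for a sample far from the others, 1 stood out, where chance alone gives about 1 in 20. Psenen had a log2 ratio of 0.088 on replicate 2, while the other 4 arrays lay between 0.22 and 0.27.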

How the results depend on the processing

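Across 16 other settings, 0 of the 8 genes passed in any. Probes passing over the whole array numbered 0 in the main setting, 22 with median centring in place of loess, 2832 with array weights (replicate 2 weighed least, at 0.47), 489 with the sign of replicate 2 turned, a setting chosen after seeing the data, and 0 to 1536 when single arrays were left out (1 without replicate 1). Of the 48 pathway genes, 6 passed with array weights (Sort1, Plat, Picalm, A2m, Psenen and Adam17, all higher), where 2832 of 29113 probes passed. When single arrays were left out, 0 to 1 of the 48 passed. Signs turned for App with median centring (-0.22) and with replicate 2 turned (-0.044), for Psen2 with median centring (-0.043), for Mme with replicate 2 turned (-0.010), for Aplp2 without replicate 1 (0.012), 3 (0.023) or 5 (0.0077), within a range from -0.12 to 0.023 over single arrays left out, and for Lrp1 without replicate 1 (0.016), within a range from -0.17 to 0.016; the cause was not tested. The slide as a random block gave 0 calls, and slide 2 held 1 array, so the values without replicate 5 are those within slide 1. The mean over all probes of a gene gives no count of probes. The fit is itself paired by array, and no further replicate block could be fitted to 1 group of ratios. All 10 probes were well above background, but Bace1, Mme and the dimmer Lrp1 probe were the dimmest, and their values moved with the processing. Bace1 went from 0.093 to 0.16 and Mme from 0.080 to 0.14 with an offset of 0. The dimmer Lrp1 probe went from -0.15 to -0.35 with the authors' values. The part of low signal in these shifts was not tested.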
